A study of Mus musculus with 18 samples.

Results

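The 10 genes described here carry the G1 control of the cell cycle in T cells. They are the D-type cyclins Ccnd2 and Ccnd3, the E-type cyclins Ccne1 and Ccne2, the kinases Cdk2, Cdk4 and Cdk6, and the inhibitors Cdkn1a, Cdkn1b and Cdkn2c. They were taken by symbol from a table of 15402 genes, and the choice was made with earlier results of these data known. All 10 passed the filter on low values that left 13190 genes for testing. RNA was sequenced from CD4+ T cells of female mice, labelled C57/BL6 Foxp3Timer Foxp3-IRES-GFP. Every population, controls included, came from mice whose abdominal skin had received 3% oxazolone, and cells were sorted from the draining lymph nodes on day 5. Foxp3Timer mice express, under control of the Foxp3 gene, a fluorescent Timer protein that is blue when new and turns stably red with age, so that blue marks recent Foxp3 transcription. The Timer- cells were CD44lo (Tnaive) and CD44hi (Teff). The Timer+ cells were Pers1 (intermediate blue, low red), Pers2 (high blue, high red), PAt (low blue, high red) and Arrested (no blue, intermediate red). Pers1 and Pers2 are called the persistent populations. Each population had 3 libraries, 1 from each of 3 pools of 3 mice, and the labels give no age.

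In G1, D-type cyclins bind Cdk4 or Cdk6 and begin the phosphorylation of the retinoblastoma protein, which frees E2F transcription factors. E-type cyclins, themselves E2F targets, then activate Cdk2 and carry the cell into S phase. INK4 proteins such as Cdkn2c (p18) bind Cdk4 and Cdk6 alone, while the CIP/KIP proteins Cdkn1a (p21) and Cdkn1b (p27) bind cyclin and kinase complexes. In resting T cells, Cdkn1b protein is known to restrain Cdk2 and to be degraded after stimulation.

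All values are log2 normalised counts as deposited, and library medians over the tested genes lay between 9.59 and 9.76. Reads per library were not known, so precision rests on the spread among 3 libraries. The markers Foxp3, Il2ra and Ikzf2 together reached a summed log2 level of 15.72 to 16.40 in Timer+ libraries and 11.46 to 12.92 in Timer- libraries. T cell markers lay between 16.38 and 16.86 in all 18. The Teff libraries also carried the most dendritic cell, monocyte, B cell and CD8 T cell marker RNA. Their dendritic cell markers (5 of 5 in the table) summed to 11.20 to 11.74, against 6.71 to 7.27 in all other libraries. The corresponding values for macrophage or monocyte markers were 9.95 to 10.29 against 7.02 to 8.42. In Teff the highest dendritic cell marker was Siglech (10.62) and the highest macrophage or monocyte marker Lyz2 (9.69). Of these 2 sets, Xcr1 was highest in Pers1 (5.44, against 5.37 in Teff) and Fcgr3 in Tnaive (5.95, against 5.79 in Teff). B cell markers summed to 12.66 to 13.19 in Teff, 11.71 to 12.31 in PAt and Arrested, 11.18 to 11.38 in the persistent populations and 9.72 to 10.28 in Tnaive. CD8 T cell markers (Cd8a and Cd8b1) summed to between 11.51 and 12 in Teff and 9.65 to 10.70 in all other libraries. The lowest marker was Cd14, with population means of 0.46 to 0.55, and on this scale a gene without reads need not be listed at 0.

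The comparison of persistent cells with PAt and Arrested asked how cells with more and with less ongoing Foxp3 transcription differ. Both E-type cyclins and the inhibitors Cdkn1a and Cdkn2c were higher in the persistent populations, by 2.52 to 3.83 times. The kinases Cdk2, Cdk4 and Cdk6 were higher by 1.24 to 1.51 times, below the 2-fold limit. The D-type cyclins had log2 differences of -0.10 and -0.09, and Cdkn1b was lower. By limma, at an adjusted p under 0.05 and a log2 difference over 1, 4 of 10 genes were higher, where 4.74% of all tested genes were higher, and none was lower. At the adjusted p alone, 7 were higher and 3 lower, where 35.9% of all tested genes were higher and 35.1% lower, a comparison in which most genes passed. The median difference of the 10 genes was 0.57, against -0.01 over all tested genes. Mki67, a marker of cycling cells, was higher in the persistent populations by 2.88, and its relation to these differences was not tested. In sorted bulk RNA, more cells with a transcript and more transcript per cell cannot be told apart. B cell markers were lower in the persistent libraries (3 of 5 called), as were summed CD8 T cell markers, at 9.65 to 10.18 against 10.41 to 10.70, and their part in these differences was not tested.

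**Figure D1:**
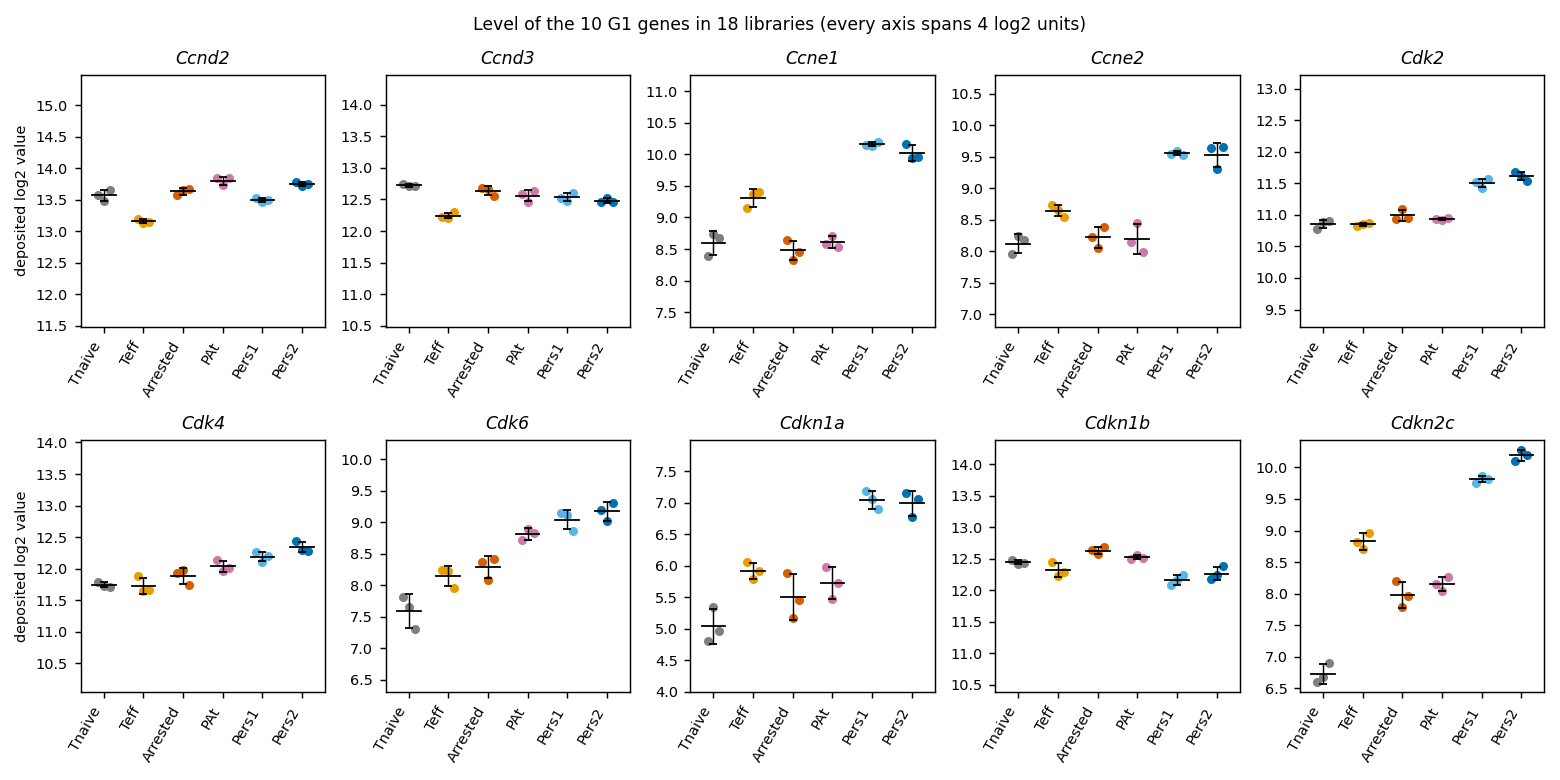
Deposited log2 value (vertical axis, the same span in every panel) of each of the 10 genes in the 3 libraries (points) of each of 6 populations (horizontal axis), with the mean (line) and SD (bar). Ccne1, Ccne2, Cdkn1a and Cdkn2c stand highest in Pers1 and Pers2, while Ccnd2, Ccnd3 and Cdkn1b span at most 0.64 log2 units over the population means.

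Of the D-type cyclins, Ccnd2 (chr6:127125162-127152193, minus strand, GRCm38) read 13.53, 13.46 and 13.49 in Pers1, 13.78, 13.71 and 13.75 in Pers2, 13.57, 13.66 and 13.68 in Arrested, and 13.84, 13.73 and 13.84 in PAt. It read 13.20, 13.13 and 13.15 in Teff and 13.57, 13.49 and 13.66 in Tnaive. PAt and Pers2 were thus highest, with overlapping libraries, and every Teff library lay below every other library. Ccnd3 ranged from 12.46 to 12.60 in the persistent populations, 12.46 to 12.69 in PAt and Arrested, 12.21 to 12.30 in Teff and 12.71 to 12.75 in Tnaive. Its highest population was Tnaive and its lowest Teff, neither overlapping the next in order. With the persistent populations set against PAt and Arrested, Ccnd2 differed by -0.10 (SE 0.03, adjusted p = 0.016, limma) and Ccnd3 by -0.09 (SE 0.04, adjusted p = 0.032). The Ccnd3 call was lost in 8 of 12 fits that left out 1 library, namely Pers1 replicate 1 or 2, Pers2 replicate 1 or 3, PAt replicate 1 or 3, or Arrested replicate 1 or 2. It was also lost in a fit of these populations alone (adjusted p = 0.056) and without a variance trend (adjusted p = 0.058).

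The E-type cyclins, which activate Cdk2, were both highest in the persistent populations. Ccne1 (chr7:38097984-38107534, minus strand) read 10.16, 10.13 and 10.20 in Pers1 and 10.17, 9.94 and 9.96 in Pers2. It read 8.64, 8.33 and 8.45 in Arrested, 8.59, 8.71 and 8.53 in PAt, 9.15, 9.37 and 9.40 in Teff, and 8.38, 8.74 and 8.67 in Tnaive. The 6 persistent libraries lay above all others, Teff was intermediate, and PAt, Arrested and Tnaive overlapped. The excess of the persistent populations over PAt and Arrested was 1.55 (SE 0.07, 2.93-fold, adjusted p = 1.1e-13, limma). Ccne2 (chr4:11191351-11204779, plus strand) had a like pattern. It read 9.55, 9.59 and 9.53 in Pers1, 9.63, 9.30 and 9.65 in Pers2, 8.22, 8.05 and 8.38 in Arrested, and 8.14, 8.45 and 7.98 in PAt. It read 8.73, 8.65 and 8.55 in Teff and 7.95, 8.23 and 8.17 in Tnaive, which again placed Teff between the other groups without overlap. The difference was 1.34 (SE 0.09, 2.52-fold, adjusted p = 1.6e-11). Ccne2 shares 17.4% of its exonic bases with Ints8 on the opposite strand, and use of the strand in counting is not given in the sources used here. Ints8 itself differed by 0.46, less than Ccne2, but had the higher level. It averaged 11.24 in the persistent populations and 10.78 in PAt and Arrested, against 9.54 and 8.20 for Ccne2. How far reads of Ints8 enter the Ccne2 values was not tested.

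Among the kinases, Cdk2, the partner of E-type cyclins, followed them only in part. Cdk2 (chr10:128697939-128705031, minus strand) read 11.52, 11.43 and 11.57 in Pers1 and 11.68, 11.62 and 11.54 in Pers2. The other 12 libraries lay between 10.78 and 11.09, so that all 6 persistent libraries stood above them. Cdk2 exceeded its PAt and Arrested level in persistent cells by 0.59 (SE 0.04, 1.51-fold, adjusted p = 2.8e-11, limma), and its Teff level did not stand above Tnaive. Cdk4 ranged from 12.11 to 12.44 in the persistent populations, 11.74 to 12.14 in PAt and Arrested, 11.65 to 11.88 in Teff and 11.72 to 11.79 in Tnaive. It differed by 0.30 (SE 0.05, adjusted p = 1.5e-05), with libraries of the groups overlapping. Cdk4 shares 19.7% of its exonic bases with Tspan31 on the opposite strand, which differed by 0.62 in the same comparison.

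Cdk6, the other partner of D-type cyclins, was graded across the populations. It read 9.14, 9.12 and 8.86 in Pers1, 9.19, 9.01 and 9.31 in Pers2, 8.36, 8.09 and 8.42 in Arrested, and 8.71, 8.89 and 8.83 in PAt. It read 8.24, 8.23 and 7.96 in Teff and 7.82, 7.66 and 7.30 in Tnaive. Every Timer+ library lay above every Tnaive library, PAt lay above Arrested, and PAt overlapped Pers1. The excess of the persistent populations over PAt and Arrested was 0.55 (SE 0.09, 1.47-fold, adjusted p = 2.1e-05, limma).

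The 3 inhibitors did not move together. Cdkn2c, which binds Cdk4 and Cdk6, had the widest span of the 10 genes, 3.47 log2 units between its highest and lowest population means. Cdkn2c (chr4:109660876-109667189, minus strand) read 9.76, 9.86 and 9.82 in Pers1, 10.10, 10.28 and 10.20 in Pers2, 8.20, 7.79 and 7.96 in Arrested, and 8.15, 8.04 and 8.26 in PAt. It read 8.82, 8.70 and 8.96 in Teff and 6.59, 6.67 and 6.90 in Tnaive. Each step in the order Pers2, Pers1, Teff, PAt, Arrested, Tnaive was free of overlap except that between PAt and Arrested. The excess of the persistent populations over PAt and Arrested was 1.94 (SE 0.08, 3.83-fold, adjusted p = 7.4e-15, limma).

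Cdkn1a (chr17:29090976-29100727, plus strand), a p53 target that inhibits Cdk2 complexes, separated the persistent populations as the E-type cyclins did. It read 7.19, 7.05 and 6.90 in Pers1, 7.15, 6.77 and 7.05 in Pers2, 5.88, 5.16 and 5.45 in Arrested, and 5.98, 5.47 and 5.73 in PAt. It read 6.05, 5.79 and 5.91 in Teff and 4.80, 5.34 and 4.97 in Tnaive. The persistent libraries were again separate from all others, whereas Teff overlapped PAt. Cdkn1a exceeded its PAt and Arrested level in persistent cells by 1.41 (SE 0.12, 2.65-fold, adjusted p = 1.7e-09, limma). Cdkn1b, the inhibitor of resting cells, differed in the other direction.

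Cdkn1b (chr6:134920401-134925513, plus strand) read 12.09, 12.16 and 12.25 in Pers1, 12.18, 12.24 and 12.38 in Pers2, 12.63, 12.57 and 12.69 in Arrested, and 12.50, 12.57 and 12.52 in PAt. It read 12.44, 12.22 and 12.29 in Teff and 12.49, 12.42 and 12.43 in Tnaive. Arrested stood highest, followed by PAt, by a margin under the rounding, and then by Tnaive without overlap, and the persistent populations were lowest and overlapped Teff. Cdkn1b differed by -0.36 (SE 0.04, adjusted p = 1.8e-07, limma), which is small beside the changes of the other inhibitors. Persistent libraries did not overlap those of PAt and Arrested for 6 of the 10 genes, Ccne1, Ccne2, Cdk2, Cdkn1a and Cdkn2c above and Cdkn1b below, where 24% of all tested genes lay wholly above and 21.8% wholly below.

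The sequence before the start of these genes was read because Ccne1, Ccne2, Cdk2, Cdkn1a and Cdkn2c were higher together, and because E-type cyclins are known E2F targets. RefSeq windows (GRCm38.p6) of 250 bases before a transcript start were held for 8 of the 10 genes. Ccnd2 and Ccne2 had no window and were not searched. They were searched on both strands for 4 runs of letters of the kind bound by E2F proteins. The first, TTCCCGC, was present in 3.82% of all windows. The others were TTCGCGC with 1.28%, TTGGCGC with 1.97% and TTGCCGC with 1.36%. The 8 genes have 11 windows, of which 2 held at least 1 match, 1 of Cdk2 and 1 of Cdkn2c, as did 7.9% of all 32851 windows. Both lie among the 8 windows of these genes with at least 60% GC, and 17.2% of all windows of that GC content held a match, so the count is close to that share. Cdk2 had 2 matches, at -140 and -10 from its start, and 0.8% of all windows had 2 or more. Cdkn2c had 1, at -25 in the window of its upstream start, where the bases also lie in an annotated exon of the gene. The windows of Ccne1 and Cdkn1b, genes that moved in opposite directions, held none of these letters, which says nothing of a factor. Capitals mark the matches in the stretches that follow, printed 5′ to 3′ on the strand of the gene.
Cdk2: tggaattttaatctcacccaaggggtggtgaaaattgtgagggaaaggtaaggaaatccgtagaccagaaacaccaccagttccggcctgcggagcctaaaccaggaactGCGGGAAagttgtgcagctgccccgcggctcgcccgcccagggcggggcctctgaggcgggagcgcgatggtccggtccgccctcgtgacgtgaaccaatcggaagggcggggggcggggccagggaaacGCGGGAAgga
Cdkn2c: ggggcccggccTTCCCGCtcccgcggcgcc
Ccne1: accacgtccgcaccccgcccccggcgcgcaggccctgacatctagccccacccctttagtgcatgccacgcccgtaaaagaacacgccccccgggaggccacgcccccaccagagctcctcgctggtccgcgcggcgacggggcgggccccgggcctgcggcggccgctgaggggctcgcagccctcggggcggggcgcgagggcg
Cdkn1b: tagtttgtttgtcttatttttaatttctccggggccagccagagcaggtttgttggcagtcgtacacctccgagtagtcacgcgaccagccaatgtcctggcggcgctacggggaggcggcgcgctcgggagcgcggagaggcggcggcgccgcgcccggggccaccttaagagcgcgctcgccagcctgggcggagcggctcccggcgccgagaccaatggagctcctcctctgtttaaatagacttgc

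The Cdk2 stretch is chr10:128705052-128705301 (minus strand), the Cdkn2c stretch the 30 bases of chr4:109666763-109666792 (minus strand), the Ccne1 stretch, the first 206 bases of its window, chr7:38107535-38107740 (minus strand) and the Cdkn1b stretch chr6:134920151-134920400 (plus strand). Apart from that of Cdkn2c, each lies upstream of all GENCODE exons of its gene. A match is a description of the letters, and binding was not measured.

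Levels of different genes were compared per length, as the log2 value less the log2 of exonic kilobases. Exonic bases were those of all annotated transcripts of a gene together, from 2662 for Ccne1 to 13989 for Cdk6. The transcripts in these cells may be shorter, by an amount not measured, so the order of the genes rests in part on the annotation. On that scale the population means of Ccnd2 (9.93 to 10.57), Cdk4 (10.03 to 10.64) and Cdkn1b (9.98 to 10.44) were highest and nearly equal. Ccnd3 followed at 9.11 to 9.59 and Cdk2 at 8.21 to 8.98. The E-type cyclins and Cdkn2c varied more, at 7.06 to 8.75 for Ccne1, 6.31 to 7.75 for Ccne2 and 5.30 to 8.77 for Cdkn2c. Cdk6 (3.78 to 5.36) and Cdkn1a (3.21 to 5.22) were lowest in every population. Ccnd3 and Cdk6 have near-identical copies, Ccnd3-ps (97.6% over 881 bases) and Gm16505, that are not in the table, so their levels are less certain.

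Within the persistent pair, 0 of 10 genes passed both criteria between Pers2 and Pers1 (0.19% of all tested genes), and 3 had an unadjusted p under 0.05 (limma). The share of all genes at that unadjusted limit was not counted. At the adjusted p alone, 2 of 10 were higher in Pers2, where 6.02% of all genes were. Ccnd2 was higher in Pers2 by 0.25 (SE 0.05, adjusted p = 0.0018, limma) and Cdkn2c by 0.38 (SE 0.11, adjusted p = 0.033). The Cdkn2c call was lost in 5 of 6 fits that left out 1 library, all but that without Pers2 replicate 1, at adjusted p up to 0.13. Ccne1, Ccne2 and Cdkn1a differed by -0.14, -0.03 and -0.06, with 95% confidence intervals of -0.36 to 0.08, -0.28 to 0.23 and -0.42 to 0.30.

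Between Arrested and PAt, 0 of 10 genes passed both criteria (0.121% of all tested genes), and 3 had an unadjusted p under 0.05, again without a share of all genes. At the adjusted p alone 1 was lower, where 2.97% of all genes were. That gene was Cdk6, lower in Arrested with a difference of -0.52 (SE 0.13, adjusted p = 0.022, limma). Leaving out PAt replicate 2, PAt replicate 3 or Arrested replicate 2 gave adjusted p of 0.098, 0.063 and 0.13. Ccnd2 differed by -0.17 (SE 0.05, adjusted p = 0.052, and 0.02 with a replicate block). The E-type cyclins, Cdkn1a and Cdkn2c had differences between -0.22 and 0.03, none past the threshold. For Ccne1 the 95% interval was -0.35 to 0.09, and for Cdkn2c -0.40 to 0.06.

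Related genes were also set against each other within each library, which removes library scaling, and the values are given as a description. These differences are of the deposited values, not per length, so that their change between populations can be read and not which gene of a pair has more transcripts. Ccnd2 minus Ccnd3 was 1.27 ± 0.07 log2 units (SD, n = 3) in Pers2 and 1.25 ± 0.03 in PAt. In Pers1 the value was 0.96 ± 0.06, in Arrested 1.00 ± 0.12, in Teff 0.91 ± 0.06 and in Tnaive 0.85 ± 0.09. The 6 Pers2 and PAt libraries, from the populations sorted with high red fluorescence, lay at 1.19 or above and the other 12 at 1.12 or below. Cdk6 minus Cdk4 ran from -4.15 ± 0.23 in Tnaive to -3.59 ± 0.15 in Teff and -3.59 ± 0.29 in Arrested, and lay between -3.23 and -3.15 in PAt, Pers2 and Pers1. Ccne1 minus Ccne2 stayed between 0.26 and 0.66 in all 6 populations, with SDs up to 0.23, so the pair kept a similar ratio. Cdkn2c minus Cdkn1b ran from -5.72 ± 0.18 in Tnaive through -4.65 ± 0.19 in Arrested, -4.38 ± 0.14 in PAt and -3.49 ± 0.15 in Teff to -2.35 ± 0.06 in Pers1 and -2.07 ± 0.12 in Pers2. The balance between Cdkn2c and Cdkn1b transcripts thus spanned more than that of any other pair examined. Cdkn1a minus Cdkn1b ran from -7.41 ± 0.31 in Tnaive to -5.12 ± 0.22 in Pers1.

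**Figure D2:**
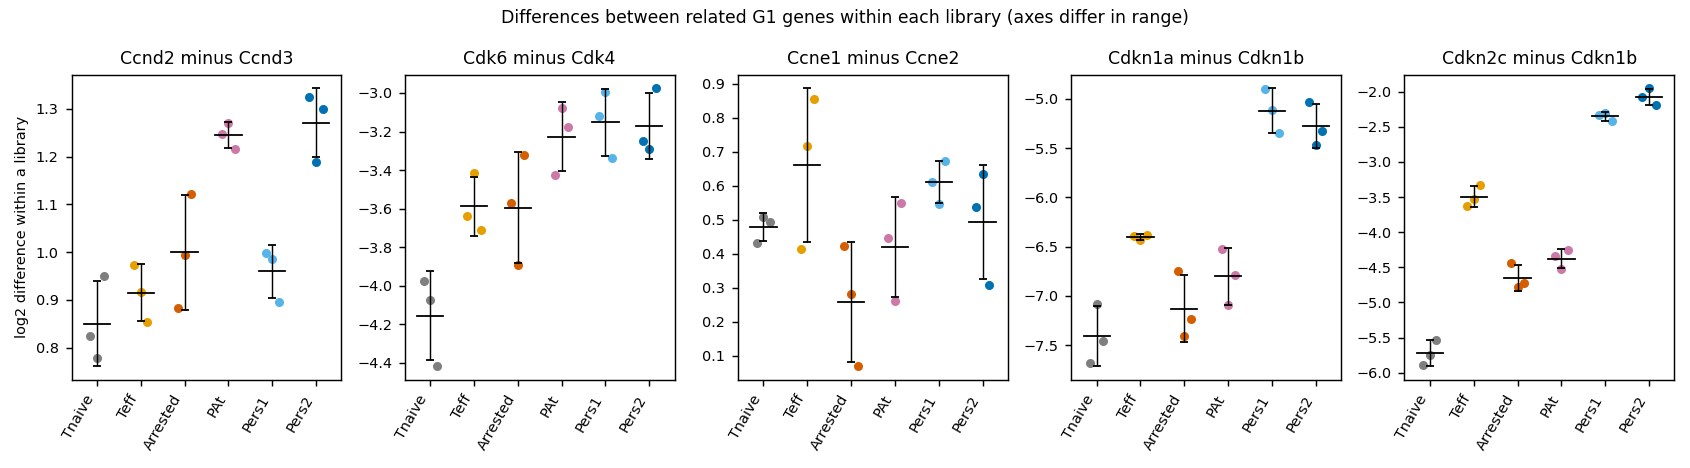
Log2 difference between 2 related genes within each library (vertical axis, range differs by panel) for 5 pairs in 6 populations (horizontal axis). Points are the 3 libraries, lines the mean and bars the SD. Ccnd2 minus Ccnd3 is 1.19 or more in every Pers2 and PAt library and 1.12 or less elsewhere, and Cdkn2c minus Cdkn1b is lowest in Tnaive and highest in Pers2.

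The comparison of Teff with Tnaive asked the corresponding question in Timer- cells. Cdkn2c was higher in Teff by 2.10 (SE 0.11, 4.30-fold, adjusted p = 6.9e-13, limma). It was the only gene of the 10 past both criteria, where 11.2% of all tested genes passed. At the adjusted p alone, 5 were higher and 2 lower, where 31.3% of all genes were higher and 27.7% lower, so that these counts lie near the background. The higher genes besides Cdkn2c were Ccne1 (0.71, SE 0.11, adjusted p = 6.6e-06), Ccne2 (0.52, SE 0.12, adjusted p = 0.001), Cdk6 (0.55, SE 0.13, adjusted p = 0.0012) and Cdkn1a (0.88, SE 0.17, adjusted p = 0.00018). The D-type cyclins were lower, Ccnd2 with -0.41 (SE 0.05, adjusted p = 3e-07) and Ccnd3 with -0.48 (SE 0.05, adjusted p = 7.8e-08). Cdk2 differed by -0.01 (95% interval -0.13 to 0.11) and Cdk4 by -0.02 (-0.16 to 0.13). Tspan31, which overlaps Cdk4, was higher by 1.38 in this comparison. It averaged 10.97 in Teff and 9.59 in Tnaive, against 11.73 and 11.75 for Cdk4. How far reads of Tspan31 enter the Cdk4 values was not tested. Cdk6 and Ccne2 did not pass after quantile normalisation (0.22 and 0.28, adjusted p = 0.15 and 0.056). All Teff libraries carried the dendritic, macrophage, B cell and CD8 T cell marker RNA given above (Cd8a was higher than in Tnaive by 2.06), whose part in these differences was not tested.

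**Figure D3:**
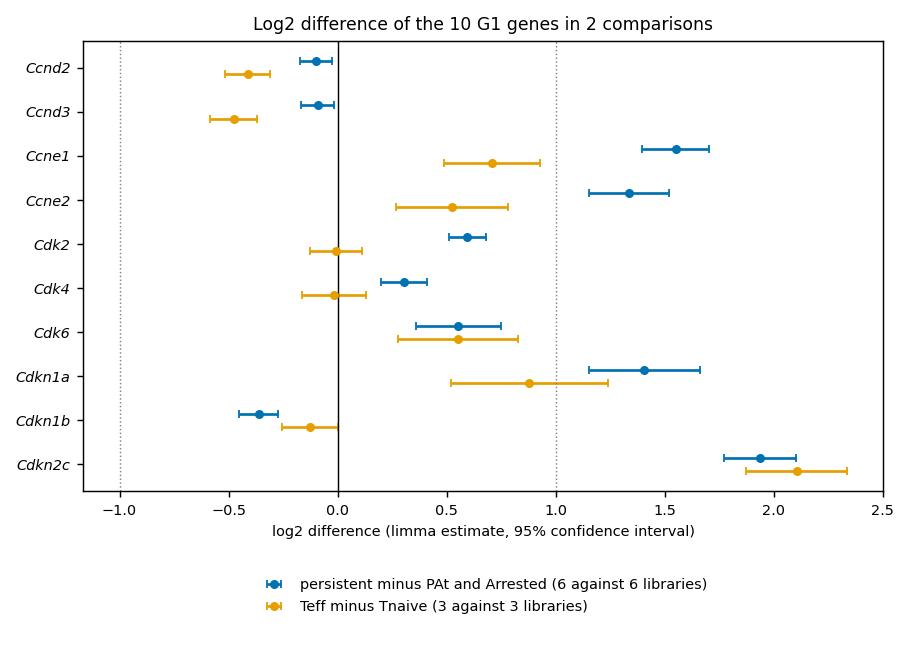
Log2 difference estimated by limma (horizontal axis, bars are 95% confidence intervals) for each of the 10 genes, for the persistent populations over PAt and Arrested (blue, 6 against 6 libraries) and for Teff over Tnaive (orange, 3 against 3 libraries). Dotted lines mark a log2 difference of 1 either way. The 2 intervals lie apart for Ccnd2, Ccnd3, both E-type cyclins, Cdk2, Cdk4 and Cdkn1b, and overlap for Cdk6, Cdkn1a and Cdkn2c.

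The 2 comparisons share no library, and the difference between them was tested in the same model. Past both criteria, 0 of 10 genes differed (8.42% of all tested genes). At the adjusted p alone 8 of 10 passed, where 48.7% of all genes did, and the same 8 had an unadjusted p under 0.05. The excess in Timer+ cells was 0.84 (SE 0.13, adjusted p = 1.5e-05, limma) for Ccne1, 0.81 (SE 0.15, adjusted p = 0.00014) for Ccne2 and 0.60 (SE 0.07, adjusted p = 3.4e-07) for Cdk2. Cdk6 had nearly equal differences in both, 0.55 each, with a 95% interval of -0.33 to 0.34 for the excess. For Cdkn2c, 1.94 in Timer+ and 2.10 in Timer- cells gave -0.17, with an interval of -0.45 to 0.12. The D-type cyclins fell in Teff by more than in the persistent populations, which gave 0.31 (SE 0.06, adjusted p = 0.00019) for Ccnd2 and 0.39 (SE 0.06, adjusted p = 3.4e-05) for Ccnd3. The Teff libraries, with their marker RNA of other cells, enter this test too.

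Set directly against Teff, the persistent populations had more of 9 of the 10 genes at the adjusted p alone and less of none, where 29.8% of all tested genes were higher. For the same 9 genes, all but Cdkn1b, no persistent library overlapped a Teff library, where 24.9% of all genes lay wholly above. Both criteria were passed by Cdkn2c (1.18, SE 0.10, adjusted p = 1.1e-09, limma) and Cdkn1a (1.10, SE 0.15, adjusted p = 2.1e-06), where 4.28% of all genes were higher. Cdk6 (0.96) and Ccne2 (0.90) were just inside the 2-fold limit, and Cdk6 passed it without Teff replicate 1, Teff replicate 2, Pers1 replicate 3 or Pers2 replicate 2. Cdk2 differed by 0.71 (SE 0.05, adjusted p = 7e-11), Cdk4 by 0.54 (SE 0.06, adjusted p = 1.8e-07) and Ccnd2 by 0.46 (SE 0.04, adjusted p = 6.7e-09). Cdkn1b differed by -0.10 (95% interval -0.21 to 0.01). Most markers of other cells were lower in the persistent populations than in Teff, with medians of -4.58 for dendritic cell (3 of 5 called), -2.37 for macrophage or monocyte (3 of 4), -1.69 for B cell (4 of 5), -2.01 for CD8 T cell (2 of 2) and -1.49 for NK cell markers (3 of 4), and their part in these differences was not tested.

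PAt and Arrested were set against Tnaive, to compare cells with little or no blue Timer with naive cells. Mki67, a marker of cycling cells, was higher in PAt and Arrested than in Tnaive by 3.16. Cdkn2c was higher than in Tnaive by 1.34 (SE 0.10, 2.54-fold, adjusted p = 1.3e-10, limma), the 1 gene of 10 past both criteria, where 6.63% of all tested genes were higher. After quantile normalisation Cdkn2c came to 0.995 and 0 of 10 genes passed. B cell markers were also higher than in Tnaive (5 of 5 called, median 2.01), and their part in these differences was not tested. Cdk6 was higher by 0.96 (SE 0.11, adjusted p = 4.2e-07) and passed the 2-fold limit without Tnaive replicate 1 (1.07) or Arrested replicate 2 (1.01). The E-type cyclins had differences of -0.05 (95% interval -0.24 to 0.14) for Ccne1 and 0.08 (-0.14 to 0.31) for Ccne2. At the adjusted p alone, 6 genes were higher and 1 lower, where 26.9% of all genes were higher and 23.8% lower. Besides Cdkn2c and Cdk6 these were Cdkn1a (0.57), Cdk4 (0.22), Ccnd2 (0.15), Cdkn1b (0.13) and Ccnd3 (-0.12). Their calls were lost after quantile normalisation (Cdkn1a), after re-centring the libraries on their medians (Cdk4, Ccnd2 and Cdkn1b) or without a variance trend (Ccnd3 and Cdkn1b), and for Ccnd3 also in a fit of these populations alone (adjusted p = 0.055). Leaving out 1 library lost the Cdkn1b call in 7 of 9 fits, all but those without PAt replicate 1 or Arrested replicate 2, and the Ccnd3 call without any 1 Tnaive library or PAt replicate 2. The Ccnd2 call was lost without Tnaive replicate 2 (adjusted p = 0.079). Against Teff, PAt and Arrested had 0 of 10 genes past both criteria (6.88% of all tested genes). At the adjusted p alone 8 passed, as did 6950 of the 13190 tested genes. An unadjusted p under 0.05 was held by 9, a limit for which no share of all genes was counted. Ccne1 stood at -0.76 (SE 0.09, adjusted p = 4.3e-07) and Cdkn2c at -0.76 (SE 0.10, adjusted p = 9.7e-07). Ccnd2 was higher than in Teff by 0.56 (SE 0.04, adjusted p = 3.8e-10). Most markers of other cells were lower in PAt and Arrested than in Teff. Medians were -4.58 for dendritic cell (3 of 5 called) and -2.28 for macrophage or monocyte markers (4 of 4). They were -1.20 for CD8 T cell (1 of 2), -1.18 for NK cell (3 of 4) and -0.58 for B cell markers (1 of 5). The part of this marker RNA in the differences from Teff was not tested.

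Other genes of the pathway were examined from lists chosen by function, again for the persistent populations against PAt and Arrested. Past both criteria, 4.74% of all tested genes were higher and 2.77% lower, the shares to set beside each list. Of 19 tested S and M phase cyclins and kinases, 17 were higher and 0 lower. Their median difference was 2.29, against 0.57 for the 10 G1 genes. Of 13 E2F and retinoblastoma family genes, 4 were higher, namely E2f8 (3.21), E2f7 (2.58), E2f1 (2.12) and Tfdp1 (1.30), and the median was 0.49. Of 15 tested subunits of ubiquitin ligases that act on these cyclins and inhibitors, 2 were higher. They were Dtl (2.70), which directs the destruction of Cdkn1a in S phase, and Cks1b (2.27), the cofactor with which Skp2 recognises Cdkn1b. Skp2 itself was higher by 0.85 (SE 0.09, adjusted p = 6e-08, limma), inside the 2-fold limit.

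Of 8 tested G1 partners outside the 10 genes, 0 passed both criteria by limma, where 4.74% of all tested genes were higher and 2.77% lower. The median was 0.08. An unadjusted p under 0.05 was held by 5, a limit for which no share of all genes was counted. The same 5 passed the adjusted p alone, 3 higher and 2 lower, where 35.9% of all tested genes were higher and 35.1% lower. Cdc25a, a phosphatase that activates Cdk2, was higher by 0.87 (SE 0.06, adjusted p = 1.7e-11) at the adjusted p alone, and Cdkn2d, the INK4 relative of Cdkn2c, was lower with -0.20 (SE 0.05, adjusted p = 0.0011). Cdkn2d was higher in Tnaive (11.23 ± 0.04, SD, n = 3) than in Teff (10.49 ± 0.17), opposite in direction to Cdkn2c. Ccnd1, the D-type cyclin little used by lymphocytes, stood at 9.01 ± 0.24 in Teff and at 5.98 to 6.29 on average in the other populations. Ccnd1 thus moved with the dendritic cell and macrophage marker RNA of the Teff libraries, whose part in its level was not tested. Cdkn2a and Cdkn2b, the remaining INK4 genes, were under the filter and were not tested.

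Of 18 tested p53 pathway targets, 0 were higher and 1, Plk2 (-1.60), was lower, where 4.74% of all tested genes were higher and 2.77% lower, and the median was 0.04. At the adjusted p alone 8 were higher and 6 lower, near the 35.9% and 35.1% of all tested genes. Cdkn1a differed by 1.41, and any link between p53 and its level was not tested. Of 20 regulators of quiescence, 0 were higher and 2 were lower, Klf4 (-1.64) and Klf2 (-1.11), with a median of -0.30, and 4 were higher and 12 lower at the adjusted p alone, against the same shares of all genes. Foxo1 and Foxo3, which drive Cdkn1b transcription, are named after their values were seen. They were at -0.24 and -0.47, each past the adjusted p alone, where 35.1% of all tested genes were lower. In Teff against Tnaive they were at -0.83 and -0.25, also past it, and Cdkn1b was at -0.13 and not past it. Foxo4, on the same list, was at -0.40 in the persistent populations against PAt and Arrested, past the adjusted p alone. In Teff against Tnaive Foxo4 was at -0.13 and not past it. Any link between these genes and the level of Cdkn1b was not tested.

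**Figure D4:**
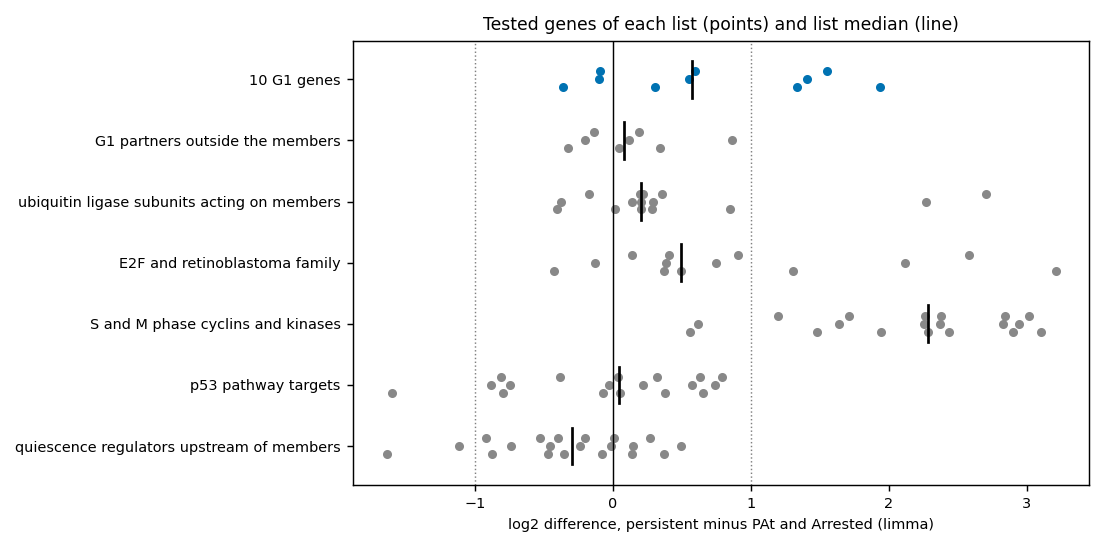
Log2 difference of the persistent populations over PAt and Arrested (horizontal axis, limma) for every tested gene (points) of the 10 G1 genes and of 6 lists of related genes, with the list median (line) and dotted lines at a difference of 1 either way. The S and M phase list has the highest median, 2.29, and the G1 partners, p53 targets and quiescence regulators have medians of 0.08, 0.04 and -0.30.

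Over all 18 libraries, the level of Cdkn2c followed that of Mki67 with a Pearson correlation of 0.98, and Cdkn1a with 0.92. The E-type cyclins and Cdk6 had correlations of 0.83 to 0.86, Cdk2 0.79 and Cdk4 0.72. Ccnd2 had -0.04, Ccnd3 -0.53 and Cdkn1b -0.60. These values describe 18 libraries that share 6 populations, and were not tested. By the same measure the tested genes nearest to each gene were Nf2 and Iqgap3 for Cdkn2c (0.995 and 0.994), Pnp2 and Dlgap5 for Cdkn1a (0.975 each), Pgk1 and Ube2n for Ccne1 (0.98 each), Ptp4a2 and Prdx1 for Ccne2 (0.986 and 0.985), and Wdr62 and Prdm1 for Cdk2 (0.98 each). For Cdk4 they were Fn1 and Pnkd (0.945 each), for Cdk6 H2afz and Cdc42se2 (0.963 and 0.959), and for Cdkn1b Ing1 and Herpud2 (0.931 and 0.92). For the D-type cyclins they were Selenbp1 and Mical3 (Ccnd2, 0.957 and 0.939) and Sf1 and Ccdc101 (Ccnd3, 0.936 and 0.935).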

How the data were processed

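RNA-seq libraries of 6 sorted T cell populations, 3 each, gave 18 columns. The authors deposited 1 table of log2 normalised counts for 15402 genes. Values lie between -0.02 and 18.89 and have the form of a regularised log transform, which draws differences of genes with few reads towards 0. Stranded mRNA libraries were sequenced as paired reads, and the submitters' processing notes name CASAVA 1.8.2, FastQC 0.11.2, TopHat2 2.0.9, DESeq2 and mm10. The counter, the annotation, use of the strand in counting and the depth are not given in the sources used here. In 22 rows the symbol is a date.

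A linear model with the 6 populations was fitted by limma 3.58.1 in R 4.3.3, with a variance trend and no pseudocount, to 13190 genes whose mean log2 value reached 3 (2212 left out, 12 residual degrees of freedom). All adjusted p-values are from limma, by Benjamini-Hochberg over all tested genes. Genes were called where the log2 difference exceeded 1 either way at an adjusted p under 0.05, as the study did, and counted also at the adjusted p alone. The 3 libraries of a population came from 3 pools of mice. The p-values rest on a spread per gene that was pooled over the libraries within all 6 populations. That spread was also drawn towards the variance trend of all tested genes, so it is not the spread of the compared libraries alone. Since the values are not counts, no count model was used. The model was tested on simulated data. Coordinates, exonic lengths and overlaps came from GENCODE vM21 on GRCm38, near-identical copies from BLAST (at least 95% over 200 bases) and promoter windows from RefSeq GRCm38.p6, which matched 8 of 10 symbols.

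The 10 genes and the lists were chosen with earlier results of these data known. Named genes are the 10, genes of the lists that act directly on them or belong to counts of 5 or fewer, Mki67, and for each of the 10 the 2 tested genes with the highest Pearson correlation over 18 libraries. The marker lists also held NK cell and plasma cell genes. NK cell markers (4 of 5 in the table) summed to 9.10 to 9.47 in Timer- and 7.46 to 7.87 in Timer+ libraries. The Tnaive sum was mostly Eomes (9.13), while Klrb1c (4.80), Gzma (4.78) and Ncr1 (2.76) were each lowest in Tnaive and highest in Teff. Plasma cell markers summed to 12.93 to 13.18 in the persistent and 10.81 to 11.66 in all other libraries. That sum was mostly Prdm1 and Xbp1, while Sdc1 and Jchain were highest in Teff.

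Per the series' description all populations were sorted from the same mice, so the 6 libraries of a replicate number were taken to share a pool and the number to pair libraries. Deviations from population means had a median correlation of 0.166 over 45 pairs with the same number (-0.206 to 0.436) and -0.0642 over 90 pairs with different numbers. The main model has no replicate block, as the study's methods name none. Alternatives to the filter, threshold, samples, variance trend and library scaling, a replicate block and fits that each left out 1 library were run.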

Additional observations from a re-analysis of the deposited data

Results flagged for a closer look

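For 8 of the 10 genes, the difference of the persistent populations from PAt and Arrested was not the same as that of Teff from Tnaive, by the test of the difference itself in limma (adjusted p under 0.05), as for 48.7% of all tested genes. The Timer+ difference less the Timer- difference was 0.84 for Ccne1, 0.81 for Ccne2, 0.60 for Cdk2, 0.53 for Cdkn1a (adjusted p = 0.046), 0.39 for Ccnd3, 0.32 for Cdk4, 0.31 for Ccnd2 and -0.24 for Cdkn1b (adjusted p = 0.012). The Cdkn1a call was lost in 12 of 18 fits that left out 1 library, with an adjusted p of 0.17 without Tnaive replicate 2, and held without Teff replicate 1, Tnaive replicate 1, PAt replicate 1, Arrested replicate 1, Pers1 replicate 3 or Pers2 replicate 2. It was also lost without the filter on low values (adjusted p = 0.051) and without a variance trend (adjusted p = 0.053). The Cdkn1b call was lost without Teff replicate 1 (adjusted p = 0.06). Teff libraries held more dendritic cell, macrophage and B cell marker RNA than the others, and its part in these values was not tested.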

How the results depend on the processing

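The threshold set the counts most. At an adjusted p under 0.05 with no minimum fold, the 10 genes gave 7 calls for Teff against Tnaive, 10 for the persistent populations against PAt and Arrested, 2 for Pers2 against Pers1, 1 for Arrested against PAt, 9 for the persistent populations against Teff, 7 for PAt and Arrested against Tnaive, 8 for PAt and Arrested against Teff and 8 for the difference of differences, where both criteria gave 1, 4, 0, 0, 2, 1, 0 and 0. Over all tested genes the same change took the counts from 1472 to 7785, 990 to 9357, 25 to 1395, 16 to 665, 1096 to 7739, 1042 to 6684, 908 to 6950 and 1110 to 6420.

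Quantile normalisation left 0 calls for PAt and Arrested against Tnaive, where Cdkn2c came to 0.995, and gave 1 for the difference of differences, Ccne2. It reversed values that were not called, Ccne2 in PAt and Arrested against Tnaive (-0.14) and Cdkn2c in the difference of differences (0.17). Of all genes it moved the higher and lower calls from 1171 and 301 to 942 and 550 for Teff against Tnaive, and from 200 and 910 to 410 and 750 for the difference of differences. Scaling shifted the median of all genes by 0.083 at most, downwards for Teff against Tnaive.

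Leaving out 1 library kept 4 calls for the persistent populations against PAt and Arrested and 0 in the counts of 0. It gave 1 to 2 for Teff against Tnaive (2 without Tnaive replicate 2, adding Cdkn1a), 1 to 2 for PAt and Arrested against Tnaive and 2 to 3 for the persistent populations against Teff (adding Cdk6 in both). Arrested against PAt had 26 genes in all without Arrested replicate 3. Values near 0 changed sign, over -0.0478 to 0.0174 for Cdk2 and -0.0889 to 0.0253 for Cdk4 in Teff against Tnaive, -0.137 to 0.054 for Cdkn1a and -0.0863 to 0.0875 for Ccne2 in Pers2 against Pers1, -0.0758 to 0.157 for Ccne2 in Arrested against PAt, -0.161 to 0.0173 for Ccne1 in PAt and Arrested against Tnaive, and -0.111 to 0.149 for Cdk6 in the difference of differences. The paired differences within a library moved by less than 1 SD in all 285 fits that left out 1 library. With 3 libraries per population and these SDs no such fit could have moved them further, so this is no measure of their stability.

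With the replicate block the 10 genes gave 1, 4, 0, 0, 2, 1, 0 and 0 calls in the same order, as without it. At the adjusted p alone the block added Ccnd2 in Arrested against PAt (0.052 to 0.02) and Cdk2 in PAt and Arrested against Teff (0.052 to 0.049), and changed no other call of the 10 genes. Depth was unknown, and differences of Cdkn1a, a gene of low level, may be understated by the transform.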
